A study of Mus musculus with 2 samples.

Results

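The genes described here are 10 known targets and inhibitors of FGF signalling through the RAS and ERK kinases: the Sprouty genes *Spry1*, *Spry2* and *Spry4*, the Sprouty-related genes *Spred1*, *Spred2* and *Spred3*, *Il17rd* (also called Sef), the phosphatase gene *Dusp6*, and the Ets transcription factor genes *Etv4* and *Etv5*. They were chosen by symbol for these known roles, and all 10 were found among the 33696 genes that the files list. Fibroblast growth factors bind receptor tyrosine kinases, which activate RAS, the RAF and MEK kinases, and then ERK. In many embryonic tissues, the limb bud included, this signal raises transcripts of *Etv4* and *Etv5*, and also of Sprouty, Spred, Sef and Dusp6 proteins, which limit the same pathway at successive steps and so act as negative feedback.

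The cells came from neonatal ICR mice whose hindlimb digits 2 and 4 were amputated through the middle phalanx (P2) at postnatal day 3. After wound closure, an agarose bead carrying FGF8 (500 ng/µl) or 0.1% BSA was implanted at postnatal day 7, and the tissue distal to the stump, stripped of its surrounding epithelium, was dissociated with Liberase 24 h later, at postnatal day 8. Each condition was 1 single-cell RNA library made from 20 digits of 5 mice, males and females pooled. FGF8-treated digits vary in outcome in the study, so the pool may mix digits that would and would not have regenerated. All comparisons below therefore set 1 library against 1 library, with no replicate check and no p-value, and the treatment cannot be told apart from the pool of animals or the library.

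The BSA library held 3703 barcodes and 67739460 UMIs, and the FGF8 library 7249 barcodes and 124889213 UMIs. A UMI, or unique molecular identifier, marks 1 captured transcript. After filtering, 3252 and 6715 cells remained, with medians of 15377 and 12251 UMIs per cell, and 6 barcode sequences occurred in both libraries. The libraries also differed in sex: of the cells that *Xist* or Y-linked transcripts could assign, 79.3% were female in the BSA library and 24.6% in the FGF8 library, so values within each sex are given below. Levels are UMIs of a gene per 1000000 UMIs of the same cells (CPM), summed over the cells of a type in a library, and differences are log2 ratios of FGF8 over BSA. Intervals are 95% intervals (exact Poisson for levels, exact conditional for ratios, Clopper-Pearson for shares) and cover counting error only. Cell types are named from marker genes and called "-like". In such data, fewer cells with the transcript and less transcript per cell are both seen as a lower CPM.

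The genes lie on different chromosomes or far apart (GRCm39 annotation): *Etv4* (ENSMUSG00000017724) at chr11:101660568-101676197 on the minus strand, *Dusp6* (ENSMUSG00000019960) at chr10:99086564-99103361 on the plus strand, *Spry1* (ENSMUSG00000037211) at chr3:37693897-37698755 on the plus strand, and *Il17rd* (ENSMUSG00000040717) at chr14:26760889-26829243 on the plus strand. RefSeq promoter entries of the assembly GRCm38.p6 were at hand for 8 of the 10 genes (9 entries, *Etv5* having more than one). *Etv4* and *Spry4* had no entry. The 250 bases before the start are shown for *Dusp6*, which was higher in the FGF8 library, and *Spry1*, which was lower in its fibroblast-like cells. Both read 5′ to 3′ on the gene's own strand, and capitals mark the motif AGGAAG (core of the PEA3 site that Etv4 and Etv5 bind) on either strand.
Dusp6: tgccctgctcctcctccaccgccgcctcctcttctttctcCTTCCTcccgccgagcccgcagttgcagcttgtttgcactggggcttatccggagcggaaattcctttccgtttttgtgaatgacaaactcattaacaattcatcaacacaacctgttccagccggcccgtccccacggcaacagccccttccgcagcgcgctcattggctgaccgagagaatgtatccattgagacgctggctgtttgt
Spry1: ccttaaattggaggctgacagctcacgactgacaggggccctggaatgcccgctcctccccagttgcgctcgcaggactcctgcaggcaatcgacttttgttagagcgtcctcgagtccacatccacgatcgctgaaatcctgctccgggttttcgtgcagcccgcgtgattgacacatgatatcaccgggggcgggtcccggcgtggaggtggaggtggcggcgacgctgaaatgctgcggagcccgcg
They lie at chr10:99262981-99263230 and chr3:37639697-37639946. The *Dusp6* promoter held AGGAAG once, at position -210 from the transcript start, and *Spry1* held none. Of the 9 entries, 2 held this motif (those of *Dusp6* and *Spred2*), against 29.5% of the 32851 promoters in the table. The longer Ets motif CCGGAAG (6.91% of all promoters), the AP-1 motif TGANTCA (6.75%) and the cyclic AMP response element TGACGTCA (1.55%) were in none of the 9. AGGAAG and CCGGAAG share the letters GGAAG, and both strands were searched. These matches describe letters in a window and do not mark bound sites.

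In fibroblast-like cells (1712 BSA and 3322 FGF8 cells, led by *Mfap4* and *Crabp1*), *Etv4* was 4.43-fold higher in the FGF8 library and *Dusp6* 1.89-fold higher, whereas *Spry1* and *Il17rd* were lower. The other 6 genes had log2 ratios between -0.05 and 0.47. Of the 10, 7 had a log2 ratio above 0, as did 44.2% of the 20052 genes with at least 10 UMIs in these cells. Only *Etv4* lay above a log2 ratio of 1, where 6.67% of all genes lay, and none lay below -1, where 5.03% did. The median log2 ratio of the 10 genes was 0.25, against -0.07 over all genes.

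**Figure D1:**
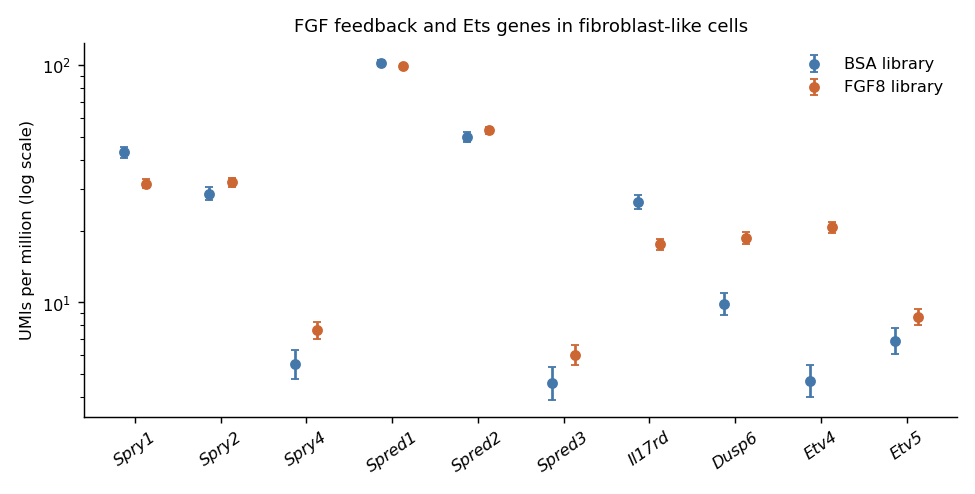
Level of the 10 genes in fibroblast-like cells of the BSA (blue) and FGF8 (orange) libraries, in CPM on a log axis, with exact Poisson 95% intervals that cover counting error only. *Etv4* stands at 4.68 and 20.7 and *Dusp6* at 9.90 and 18.7, whereas *Spry1* and *Il17rd* are lower in the FGF8 library.

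Of the Ets factors, *Etv4* had 166 UMIs in the BSA library and 1448 in the FGF8 library, or 4.68 CPM (95% interval 4.00 to 5.45) and 20.7 CPM (19.7 to 21.8). The log2 ratio was 2.15 (1.91 to 2.39), the largest of the 10 genes in these cells. *Etv5*, which binds the same DNA motif as *Etv4*, had 244 and 607 UMIs, 6.88 and 8.69 CPM, and a log2 ratio of 0.34 (0.12 to 0.56). The paralogues thus differed by different amounts in the same cells, and their intervals did not overlap. *Dusp6*, which encodes a cytoplasmic phosphatase that removes the activating phosphates from ERK, had 351 and 1306 UMIs, 9.90 and 18.7 CPM, and a log2 ratio of 0.92 (0.75 to 1.09).

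Sprouty proteins act upstream, between the receptor and RAF, and the 3 Sprouty genes did not share a direction. *Spry4* had 195 and 533 UMIs, 5.50 and 7.63 CPM, and a log2 ratio of 0.47 (0.23 to 0.72). *Spry2* stood at 28.8 and 32.0 CPM, a log2 ratio of 0.15 (0.05 to 0.26). With cells thinned at random to 5000 and 2000 UMIs, a single draw each with fewer UMIs, the ratio was -0.04 and -0.33. *Spry1* had 1521 and 2213 UMIs, 42.9 CPM (40.8 to 45.1) and 31.7 CPM (30.4 to 33.0), and a log2 ratio of -0.44 (-0.53 to -0.34). *Il17rd*, a membrane protein that holds back FGF signalling at the receptor and at MEK, had 940 and 1228 UMIs, 26.5 and 17.6 CPM, and a log2 ratio of -0.59 (-0.72 to -0.47), the lowest of the 10.

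The Spred proteins, which bring the RAS inhibitor neurofibromin to the membrane, had log2 ratios from -0.05 to 0.40. *Spred1* stood at 102 and 98.6 CPM (log2 ratio -0.05, -0.11 to 0.01) and *Spred2* at 49.9 and 53.1 CPM (0.09, 0.01 to 0.17). *Spred3* had few UMIs, 162 and 420, and stood at 4.57 and 6.01 CPM (0.40, 0.13 to 0.67).

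Within each sex the order of the genes was kept at both ends. In female-called fibroblast-like cells (1191 BSA, 684 FGF8) *Etv4* stood at 5.30 and 28.3 CPM, a log2 ratio of 2.42 (2.13 to 2.71), and in male-called cells (295 and 2128) at 3.07 and 18.3 CPM, 2.58 (1.96 to 3.28). *Dusp6* had log2 ratios of 1.21 (0.98 to 1.45) in female-called cells and 1.08 (0.68 to 1.51) in male-called cells, so that 2 of the 10 genes passed a log2 ratio of 1 in each sex, against 6.2% of all genes for females and 6.56% for males. In each library the female-called cells had the higher level of *Etv4* and of *Dusp6*, and the FGF8 library had the larger share of male-called cells. *Il17rd* had a log2 ratio of -0.54 among females and -0.56 among males, and *Spry1* of -0.33 and -0.31.

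The share of cells with a UMI was compared after each cell had been thinned to 5000 UMIs, since the libraries differ in depth, which kept 1496 BSA and 2935 FGF8 fibroblast-like cells. *Etv4* was found in 1.94% (1.30 to 2.77%) of BSA cells and 6.98% (6.09 to 7.97%) of FGF8 cells, and unthinned in 6.37% and 20.5%. In macrophage-like cells thinned alike, a type not known for *Etv4*, the shares were 0.288% of 347 cells and 0.834% of 719. The background types first planned were erythroid-like cells, with 1.45% of 69 (0.04 to 7.81%) and 0.820% of 366, and neutrophil-like cells. The latter had 0% of 14 and 2.70% of 37 (0.07 to 14.2%). The BSA fibroblast-like share lay within the interval of the BSA erythroid-like share. The unthinned median depths were 20048 and 18612 UMIs in fibroblast-like cells and 10252 and 9601 in macrophage-like cells. *Dusp6* was found in 4.08% and 7.09% of thinned fibroblast-like cells (13.1% and 22.2% unthinned), below its 20.5% and 22.8% in thinned macrophage-like cells. *Il17rd* was found in 13.4% and 8.76% (33.7% and 26.1% unthinned), against 1.15% and 1.67% in thinned macrophage-like cells.

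Among the thinned FGF8 cells, 205 had a UMI of *Etv4* and 2730 had none. *Dusp6* was found in 14.6% (10.1 to 20.2%) of the former and 6.52% (5.62 to 7.51%) of the latter, and *Spry4* in 8.29% (4.91 to 12.9%) and 3.19% (2.56 to 3.92%). *Etv5* was found in 5.85% and 3.92%, *Spry1* in 14.6% and 15.7%, and *Il17rd* in 7.80% and 8.83%, each pair with overlapping intervals. In the BSA library only 29 thinned cells had a UMI of *Etv4* and 1467 had none. There *Spry2* was found in 31.0% of the former (15.3 to 50.8%), above the interval for the latter (11.3 to 14.9%), against 13.2% and 13.1% in the FGF8 library, *Dusp6* in 13.8% (3.89 to 31.7%) and 3.89% (2.96 to 5.01%), and *Spry4* in 3.45% and 2.04%. The cells of a library are not replicates, and these shares were not split by the subclusters described next.

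The fibroblast-like cells were divided into 6 subclusters without using the genes described here or the other pathway genes listed below. Subcluster 0 was led by *Tnfrsf19*. Subcluster 1 had *Prg4*, which encodes the joint lubricant lubricin, together with mitotic genes such as *Ube2c* and *Plk1* among its leading genes. Subcluster 2 was led by *Fmod* and also had *Comp* among its leading genes, subcluster 3 by *Lpl*, and subcluster 4, with a median of 2404 and 2481 UMIs per cell, by *Lars2*. Subcluster 5 held 22 and 48 cells. The share of fibroblast-like UMIs in subcluster 1 was 25.9% in the BSA library and 54.1% in the FGF8 library, and that of subcluster 0 was 32.8% and 18.1%. Of 1105 FGF8 cells of subcluster 1 thinned to 5000 UMIs, 13.5% had *Etv4*, 10.1% *Dusp6* and 3.35% *Spry4*. Of 865 such cells of subcluster 0, 2.43%, 4.28% and 3.24% had them.

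**Figure D2:**
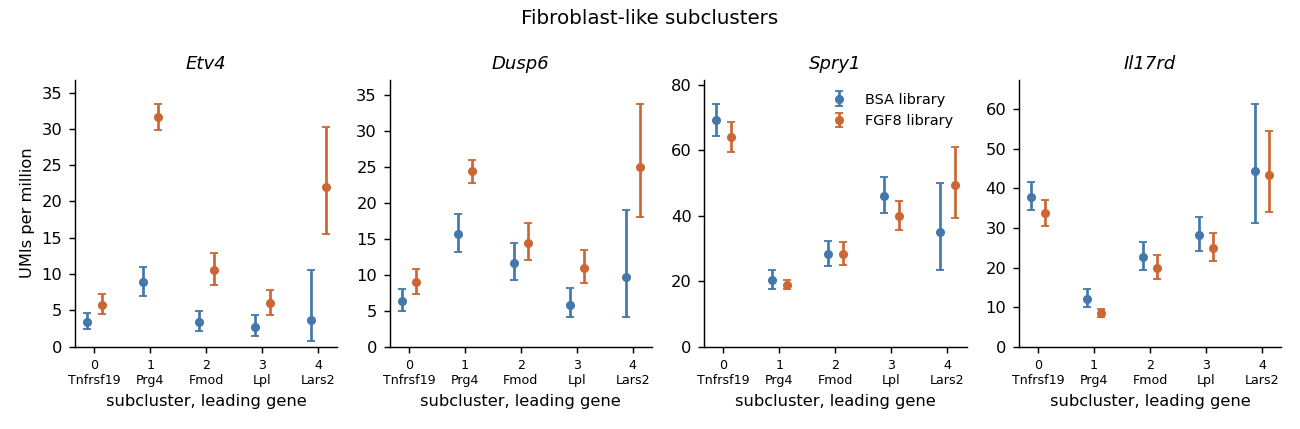
Levels of *Etv4*, *Dusp6*, *Spry1* and *Il17rd* in CPM (linear axes from 0) in fibroblast-like subclusters 0 to 4 of the BSA (blue) and FGF8 (orange) libraries, with exact Poisson 95% intervals. *Etv4* is higher in the FGF8 library in each of the 5 and reaches 31.6 in the *Prg4* subcluster, where *Spry1* and *Il17rd* have their lowest levels in both libraries.

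*Etv4* was higher in the FGF8 library in each of the 5 subclusters with at least 10 of its UMIs. Its level went from 8.83 to 31.6 CPM in the *Prg4* subcluster, a log2 ratio of 1.84 (1.51 to 2.18), and from 3.34 to 10.5 CPM in the *Fmod* subcluster, 1.66 (1.01 to 2.36). The log2 ratio was 1.16 (0.32 to 2.08) in the *Lpl* subcluster and 0.75 (0.17 to 1.34) in the *Tnfrsf19* subcluster, the smallest of the 5, and in the *Lars2* subcluster 3 UMIs stood against 37, 2.60 (0.95 to 4.95). *Dusp6* was higher in 6 of 6 subclusters, with log2 ratios from 0.31 in the *Fmod* subcluster to 1.37 in the *Lars2* subcluster.

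*Etv5* and *Spry4* differed most in the *Tnfrsf19* subcluster, where the ratio of *Etv4* was smallest. *Etv5* stood there at 4.98 and 8.85 CPM (log2 ratio 0.83, 0.36 to 1.31), but at 9.05 and 9.28 CPM in the *Prg4* subcluster (0.04, -0.31 to 0.40). *Spry4* had 44 and 92 UMIs in the *Tnfrsf19* subcluster, 3.78 and 7.27 CPM (0.94), and stood at 6.87 and 7.51 CPM in the *Prg4* subcluster (0.13, -0.27 to 0.55). The difference between subclusters was not tested, since each ratio comes from a single pair of libraries.

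*Spry1* and *Il17rd* differed less within most subclusters than in the pooled fibroblast-like cells. *Spry1* stood at 69.2 and 63.9 CPM in the *Tnfrsf19* subcluster and at 20.3 and 18.9 CPM in the *Prg4* subcluster, with log2 ratios of -0.11 (-0.26 to 0.03) and -0.10 (-0.34 to 0.14). *Il17rd* stood at 37.9 and 33.7 CPM in the *Tnfrsf19* subcluster (-0.17, -0.36 to 0.03) and at 12.1 and 8.44 CPM in the *Prg4* subcluster (-0.52, -0.84 to -0.20). When the FGF8 subclusters were weighted by their UMI shares in the BSA library, the log2 ratio of *Spry1* was -0.09 in place of -0.44 and that of *Il17rd* -0.20 in place of -0.59. *Etv4* stood at 13.8 CPM with that weighting, a log2 ratio of 1.56, *Dusp6* at 14.9 CPM (0.59) and *Spry4* at 7.55 CPM (0.46).

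**Figure D3:**
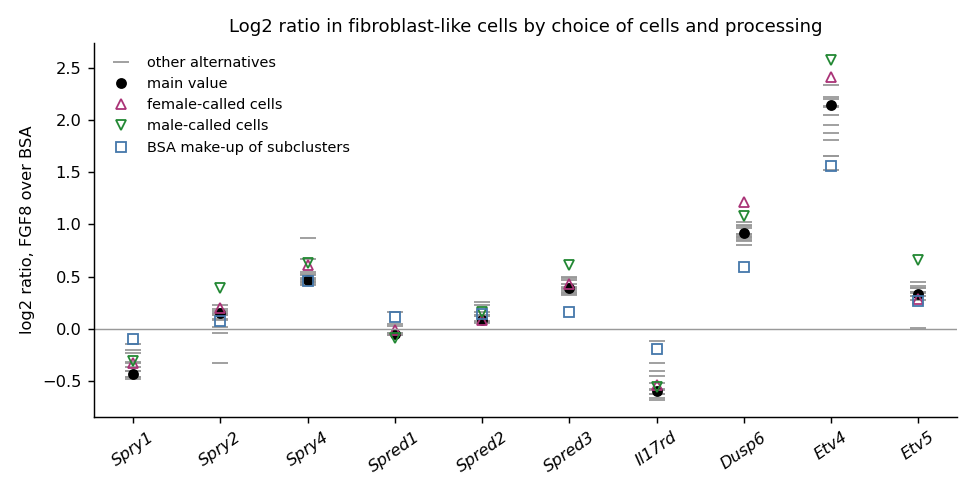
Log2 ratio of FGF8 over BSA for the 10 genes in fibroblast-like cells: filled circle, as reported; triangles, female-called (up) and male-called (down) cells; square, FGF8 subclusters weighted as in the BSA library; grey marks, the other alternatives. *Etv4* stays above 1 in each, between 1.52 and 2.58. *Spry1* comes closest to 0 with the BSA weighting (-0.09), and *Il17rd* in the single random draw of 2000 UMIs per cell (-0.11), which leaves fewer UMIs.

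Genes around the 10 were read from lists of the same pathway. Of 15 other ERK-responsive genes measured in fibroblast-like cells, 12 had a log2 ratio above 0, where 44.2% of all genes lay. Above 1 lay 5, against 6.67% of all genes, and the median was 0.69, against -0.07 over all genes. Those 5 were *Ccnd1*, the G1 cyclin gene (93.8 and 303 CPM, log2 ratio 1.69), *Fosl1*, which encodes the AP-1 subunit Fra-1 (16.5 and 45.7 CPM, 1.47), *Errfi1*, an inhibitor of EGF receptors (94.4 and 236 CPM, 1.32), *Ier3* (309 and 680 CPM, 1.14) and *Phlda1* (37.7 and 81.4 CPM, 1.11). The MAP kinase phosphatase genes *Dusp4* and *Dusp5* had log2 ratios of 0.86 (0.51 to 1.21) and 0.95 (0.74 to 1.17), close to that of *Dusp6*, and *Dusp7* of 0.01 (-0.11 to 0.12). *Etv1*, the other Ets gene of the *Etv4* and *Etv5* family, had 14.5 and 12.3 CPM and a log2 ratio of -0.24 (-0.40 to -0.08). Within subclusters 0, 1, 2 and 3 the median of the ERK-responsive genes was 0.46, 0.52, 0.43 and 0.51. It was 0.91 in subcluster 4 and 0.90 in subcluster 5, and the medians over all genes ran from -0.06 to 0.11. The part of the subcluster shares in the pooled values of this list was not tested.

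For the lists that follow, also read in fibroblast-like cells, 44.2% of all genes lay above 0, 6.67% above 1 and 5.03% below -1. The median over all genes was -0.07. The adaptor and kinase genes that carry the signal had log2 ratios from -0.47 to 0.48. Of the 20 genes for adaptors, RAS, RAF, MEK and ERK, 12 had log2 ratios above 0, none passed 1 in either direction, and the median was 0.03. Among the highest in UMIs were *Map2k2* (133 and 161 CPM, 0.28) and *Hras* (110 and 154 CPM, 0.48). Of 5 receptor genes with enough UMIs, *Fgfr1* stood at 209 and 218 CPM (0.06), *Fgfr2* at 134 and 108 CPM (-0.31), *Fgfrl1* at 14.7 and 12.3 CPM (-0.25), and *Fgfr4* at 18.6 and 6.97 CPM (-1.42, -1.59 to -1.24), with a median over the 5 of -0.25. Of 12 ligand genes, 4 lay above 0 and the median was -0.34. *Fgf7* (90.0 and 101 CPM, 0.17), *Fgf2* (30.7 and 25.5 CPM, -0.27) and *Fgf10* (31.3 and 23.5 CPM, -0.42) had the most UMIs, *Fgf23* was at 0.423 and 1.79 CPM (2.08, 1.30 to 2.96), and *Fgf1* was at 1.78 and 0.887 CPM (interval of the log2 ratio -1.53 to -0.47). Transcripts of *Fgf8* itself had 3 and 4 UMIs. Of 14 immediate early and dissociation-linked genes, which cells can switch on during enzymatic digestion, 12 lay above 0 and none past 1, with a median of 0.38. The highest in UMIs were *Jun* (0.43), *Jund* (-0.42) and *Junb* (0.53). Their part in the differences of the 10 genes was not tested.

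Chondrocyte-like cells (67 BSA and 143 FGF8 cells, led by *Matn1* and *Col2a1*) had 3 of the 10 genes above a log2 ratio of 1, where 10.3% of 12152 genes lay, and 1 below -1, where 6.29% lay. Above 0 lay 9 of the 10 and 46.4% of all genes. *Etv5* had 22 and 103 UMIs, 13.3 CPM (8.32 to 20.1) and 32.1 CPM (26.2 to 38.9), a log2 ratio of 1.27 (0.60 to 2.01). *Spry4* had 11 and 52 UMIs, 6.64 and 16.2 CPM (1.29, 0.33 to 2.37), and *Etv4* 1 and 30 UMIs, 0.604 and 9.34 CPM (3.95, 1.36 to 9.30). Alternatives that left under 10 UMIs or a library at 0 UMIs gave no ratio, which for *Etv4* included male-called cells. Over those with a ratio, *Etv5* passed a log2 ratio of 1 in 8 of 13 and *Spry4* in 9 of 12. *Etv5* came down to 0.11 with cells thinned to 2000 UMIs. *Etv4* passed 1 in 10 of 10, but these reuse largely the same cells and so are not separate support for a ratio that rests on 1 BSA UMI. *Spry1*, with 15 and 12 UMIs, stood at 9.05 and 3.73 CPM (-1.28, -2.50 to -0.08), and in female-called cells its log2 ratio was 0.21. *Spred1* stood at 193 and 258 CPM (0.42, 0.23 to 0.61), *Spred2* at 42.2 and 59.1 CPM (0.48, 0.08 to 0.90) and *Dusp6* at 12.1 and 21.5 CPM (0.83, 0.10 to 1.63). The ratio of *Dusp6* differed in sign between the sexes, 2.06 in female-called and -0.83 in male-called chondrocyte-like cells. The median of the 10 was 0.47 and that of all genes -0.05. In these cells the 14 immediate early and dissociation-linked genes were all lower in the FGF8 library (median -0.92), and the 8 fibroblast markers summed to 10055 and 4207 CPM, none of them at 0 UMIs. Markers of blood cells were higher in the FGF8 library, the 7 erythroid markers at 132 and 2345 CPM, the 7 macrophage markers at 9.05 and 123 CPM, the 7 monocyte or dendritic markers at 4.22 and 162 CPM and the 8 neutrophil markers at 3.02 and 161 CPM. The part of these in the values was not tested.

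**Figure D4:**
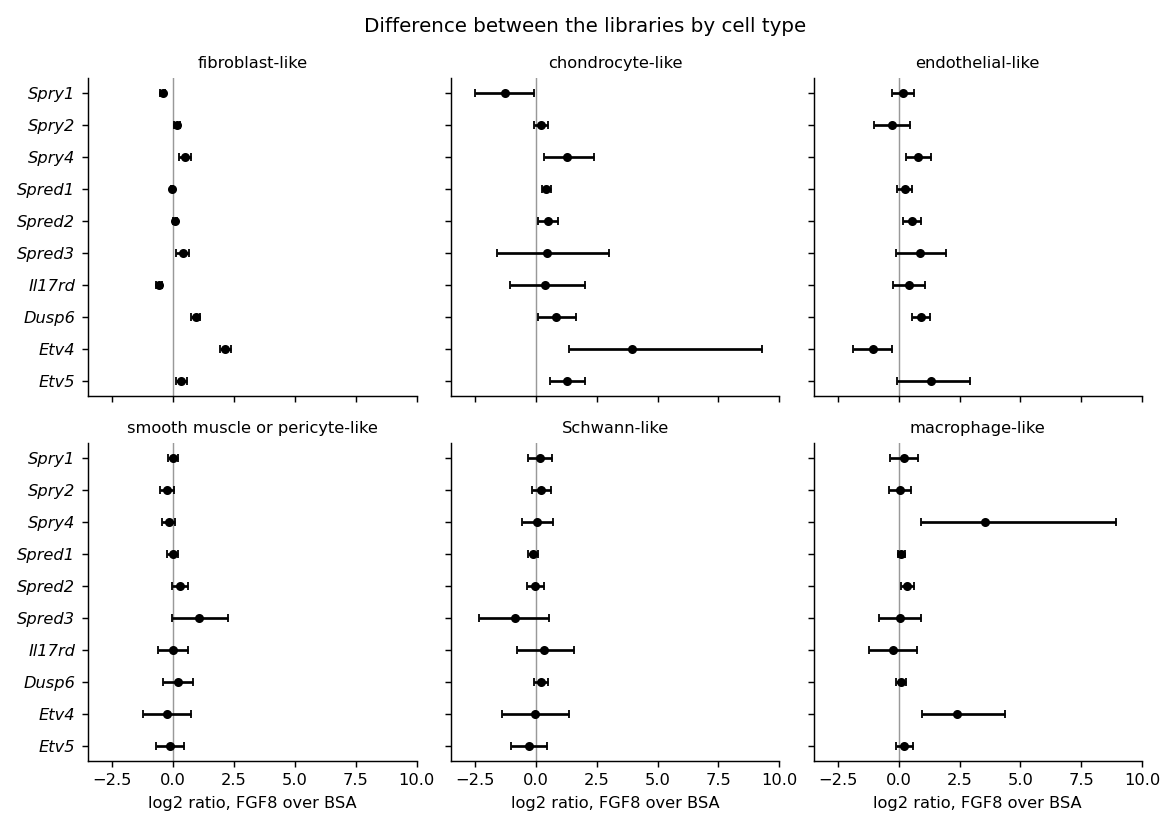
Log2 ratio of FGF8 over BSA (x axis) for the 10 genes (y axis) in 6 cell types, with exact conditional 95% intervals that cover counting error only. *Etv4* lies above 0 in fibroblast-like (2.15), chondrocyte-like (3.95) and macrophage-like (2.41) cells and below 0 in endothelial-like cells (-1.07), and the Schwann-like and smooth muscle or pericyte-like values lie near 0 for most genes.

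Endothelial-like cells (119 and 141 cells) had the lowest log2 ratio of *Etv4* among the 6 types plotted. It had 40 and 23 UMIs, 22.4 CPM (16.0 to 30.5) and 10.7 CPM (6.78 to 16.0), a log2 ratio of -1.07 (-1.88 to -0.29). It was 1 of the 10 below -1, against 5.86% of 12249 genes, and *Etv5*, with 6 and 18 UMIs (1.31, -0.08 to 2.94), was the 1 above 1, against 5.67%. Above 0 lay 8 of the 10 and 50.9% of all genes. *Dusp6* stood at 47.6 and 89.2 CPM (0.91, 0.53 to 1.29), a ratio near that of fibroblast-like cells, and *Spry4* at 27.5 and 47.4 CPM (0.79, 0.28 to 1.31). *Spred2* had 57.2 and 82.7 CPM (0.53, 0.17 to 0.90).

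The endothelial-like cells of the libraries differed in their markers. The 5 lymphatic markers summed to 4108 CPM in the BSA library and 1535 CPM in the FGF8 library, none of them at 0 UMIs, and the 8 endothelial markers to 4359 and 5433 CPM. In a split chosen after seeing the data, 66 and 61 of the cells had a UMI of *Prox1*, *Lyve1*, *Flt4*, *Mmrn1* or *Ccl21a*. These cells held 39 of the 40 BSA and 19 of the 23 FGF8 UMIs of *Etv4*, at 32.2 and 14.5 CPM, a log2 ratio of -1.16 (-2.03 to -0.33). The other 53 and 80 cells had 1 and 4 UMIs. *Dusp6* had log2 ratios of 1.03 (0.56 to 1.52) in the cells with a lymphatic marker and 0.68 (0.04 to 1.34) in those without, whereas *Spry4* had 1.33 (0.66 to 2.04) and -0.12 (-0.94 to 0.73). *Spred1* had opposite signs, 0.80 (0.40 to 1.21) with a marker and -0.83 (-1.40 to -0.27) without. *Spred2* had 0.99 (0.50 to 1.49) and -0.16 (-0.72 to 0.41). A cell with more UMIs is also more likely to show a marker, and the split was not adjusted for depth. The 14 immediate early and dissociation-linked genes were all higher in the endothelial-like cells of the FGF8 library (median 1.03), the 7 erythroid markers summed to 2321 and 10785 CPM, and the part of either was not tested. In male-called endothelial-like cells the log2 ratio of *Etv4* was 0.35.

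Macrophage-like cells (470 and 895 cells) had higher *Etv4* and *Spry4*, both at low levels. *Etv4* had 4 and 38 UMIs, 0.694 and 3.70 CPM (2.41, 0.94 to 4.36), and *Spry4* 1 and 21 UMIs, 0.174 and 2.04 CPM (3.56, 0.92 to 8.93). Thinned to 5000 UMIs, none of 347 BSA and none of 719 FGF8 macrophage-like cells had a UMI of *Spry4* (upper limits 1.06% and 0.512%), and thinned to 2000 UMIs 0% and 0.356% had one. These were 2 of the 10 above a log2 ratio of 1, where 8.83% of 15326 genes lay, and 0 lay below -1, against 3.3%. Above 0 lay 9 of the 10 and 56.1% of all genes. The 8 fibroblast markers, all detected, summed to 1765 and 2336 CPM in these cells, against 44229 and 24010 CPM in fibroblast-like cells, and *Prg4* stood at 10.4 and 111 CPM, against 264 and 2027 CPM. The part of RNA from fibroblast-like cells in the *Etv4* and *Spry4* values was not tested. *Dusp6*, at 56.2 and 59.8 CPM (0.09, -0.11 to 0.29), and *Etv5*, at 18.2 and 21.2 CPM (0.22, -0.12 to 0.57), were above their fibroblast-like levels in both libraries.

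Smooth muscle or pericyte-like cells (186 and 286 cells) and Schwann-like cells (124 and 240) showed small differences. In the former, log2 ratios ran from -0.26 (*Etv4*) to 1.04 (*Spred3*, 10 and 26 UMIs, -0.06 to 2.26), with a median of -0.02, and *Spred3* was the 1 gene above 1, against 5.34% of 13270 genes. Above 0 lay 3 of the 10 (52.3% of all genes) and below -1 lay 0 (2.49%). In the latter they ran from -0.88 (*Spred3*, 11 and 9 UMIs, -2.33 to 0.53) to 0.35 (*Il17rd*), with a median of 0.01, and none passed 1 in either direction, against 4.97% and 2.78% of 13149 genes above and below. Above 0 lay 5 of the 10 and 49.1% of all genes. For *Etv4* the counts were 19 and 20 UMIs and 9 and 13 UMIs, with intervals of -1.24 to 0.72 and -1.40 to 1.35 that cover counting error only. The log2 ratio of the pooled fibroblast-like cells, 2.15, lay outside both. The smallest ratio among the fibroblast-like subclusters, 0.75, lay within the Schwann-like interval.

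Neutrophil-like (159 and 537 cells), erythroid-like (82 and 614) and mast-like (38 and 56) cells held few UMIs of most of these genes. In neutrophil-like cells 7 of the 10 had at least 10 UMIs, and 6 of these lay above 0 (58.8% of 10979 genes). Their median was 0.83, against 0.12 over all genes. *Dusp6* stood there at 32.8 and 58.3 CPM (0.83, from -0.20 to 1.89 over the alternatives) and *Spred1* at 14.9 and 42.7 CPM (1.52). The 7 erythroid markers summed to 42277 and 8134 CPM there, and their part was not tested. In mast-like cells *Etv4* and *Il17rd* had 0 UMIs in both libraries, and 3 counts would have stood at 9.05 CPM in the BSA library. Keratinocytes formed no named cluster, but 187 BSA and 316 FGF8 cells called by their own markers had *Etv4* at 49.4 and 49.3 CPM (interval of the log2 ratio -0.35 to 0.35). In these cells *Dusp6* stood at 29.8 and 55.5 CPM (0.90, 0.49 to 1.33) and *Spred2* at 28.9 and 53.5 CPM (0.89, 0.47 to 1.33). The higher *Dusp6* thus stood beside a near-equal *Etv4* level. Above 0 lay 7 of the 10 and 64.2% of all genes in these cells, with medians of 0.20 and 0.17. The lowest log2 ratio of the 10 was -1.09, with an interval that reached above 0. The 8 keratinocyte markers summed to 12922 and 8984 CPM, none at 0 UMIs, the 7 erythroid markers to 236 and 7938 CPM and the 8 neutrophil markers to 18.6 and 167 CPM, and their part was not tested.

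Each gene had its own order over the 9 named cell types. Called keratinocytes and the cluster without a name were not ranked, and in that cluster *Etv4* stood at 34.8 and 35.2 CPM. The same cluster had the 8 keratinocyte markers at 6767 and 6016 CPM and the 8 endothelial markers at 1960 and 1862 CPM. It may thus share cells with the ranked endothelial-like cells, which came from a finer clustering, and the overlap was not counted. *Spry1* was highest in smooth muscle or pericyte-like cells, at 117 and 115 CPM, apart from endothelial-like cells at 40.9 and 46.5 CPM, and *Spry4* likewise, at 87.6 and 76.7 CPM against 27.5 and 47.4 CPM. *Spry2* was highest in chondrocyte-like cells, at 89.3 and 104 CPM, with smooth muscle or pericyte-like cells next at 66.9 and 56.3 CPM (intervals overlapping in the BSA library). Chondrocyte-like cells also led for *Spred1*, ahead of mast-like cells at 169 and 170 CPM (overlapping in the BSA library), and for *Etv5* by the mean of both libraries, ahead of macrophage-like cells. In the BSA library alone, macrophage-like cells stood above chondrocyte-like cells for *Etv5*, with overlapping intervals.

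*Dusp6* was highest by the mean of both libraries in Schwann-like cells, at 72.9 CPM (61.9 to 85.4) and 84.5 CPM (74.7 to 95.2). In the FGF8 library endothelial-like cells stood higher, at 89.2 CPM (77.1 to 103), with overlapping intervals. Fibroblast-like cells came seventh of 9 types for *Dusp6*. Endothelial-like cells led for *Spred2*, *Spred3*, *Etv4* and *Il17rd* by the mean of both libraries, with intervals that overlapped the next type in the BSA library for *Spred2* and *Il17rd* and in both libraries for *Spred3*. The order of *Etv4* among the 9 named types differed between libraries: endothelial-like cells led in the BSA library (22.4 against 4.68 CPM in fibroblast-like cells), and fibroblast-like cells in the FGF8 library (20.7 against 10.7 CPM). *Il17rd* had 87.5% and 85.0% of its UMIs in fibroblast-like cells, which held 65.2% and 67.7% of all UMIs, whereas *Dusp6* had 32.7% and 46.0% there, and *Etv4* 48.5% and 80.8%.

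**Figure D5:**
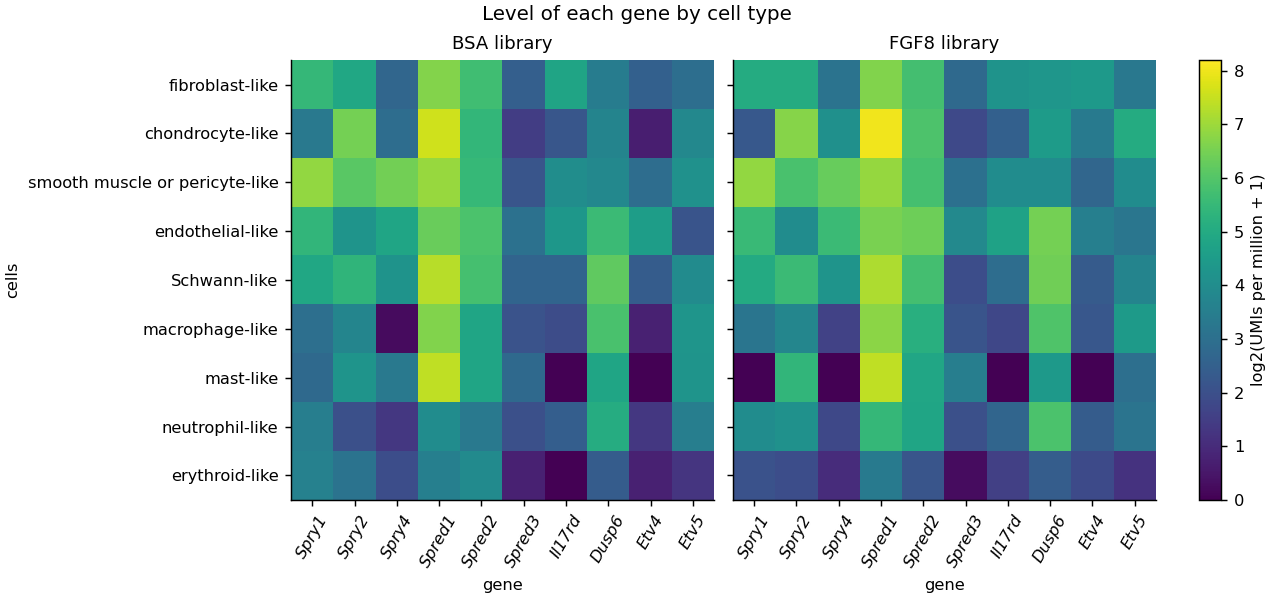
Level of each of the 10 genes (columns) in 9 cell types (rows) of each library, as log2(CPM + 1). *Spry1* and *Spry4* are brightest in smooth muscle or pericyte-like cells, *Spry2* and *Spred1* in chondrocyte-like cells, and *Dusp6* in Schwann-like and endothelial-like cells, and the *Etv4* squares of fibroblast-like and chondrocyte-like cells are brighter in the FGF8 library.

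Over the 18 profiles of 9 cell types in 2 libraries, on the log2(CPM + 1) scale, Pearson's r described which genes had a like pattern, and the profiles share libraries and depth. *Etv4* and *Etv5* had an r of 0.00 (0.0049), *Spry1* and *Spry4* of 0.80, *Spry2* and *Spred1* of 0.85, *Etv4* and *Il17rd* of 0.83, and *Dusp6* and *Etv4* of 0.23. Among 16250 genes, those most like each were *Jag1* and *Plekhh3* for *Spry1* (0.94 and 0.93), *Atp10a* and *2810001G20Rik* for *Spry2* (0.93 and 0.93), and *Sparcl1* and *Snrpn* for *Spry4* (0.95 and 0.91). They were *Ncoa5* and *Fam210a* for *Spred1* (0.97 and 0.96), *Mnat1* and *Cops8* for *Spred2* (0.97 and 0.95), *Castor1* and *Tyms* for *Spred3* (0.93 and 0.93), and *Nicn1* and *Gpr135* for *Il17rd* (0.95 and 0.93). For *Dusp6* they were *Map3k1* and *Slc30a1* (0.92 and 0.91), for *Etv4* *Dnajb3* and *Htr2a* (0.87 and 0.87), and for *Etv5* *Aldh2* and *Tns3* (0.89 and 0.88).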

How the data were processed

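The authors captured cells with 10x Genomics 3′ v3.1 chemistry and deposited raw UMI counts per gene and barcode, made with Cell Ranger 9.0.0; the submitters' notes name the builds GRCm39 and mm10. Cells with more than 200 and fewer than 7500 genes and under 15% mitochondrial UMIs were kept. They were normalized with SCTransform (sctransform 0.4.2), integrated by CCA and clustered in Seurat 5.3.0 (R 4.3.3) on 30 principal components at a resolution of 0.05, and fibroblast-like cells again at 0.2. The 10 genes and the other pathway genes were left out of the variable features in both steps, and X- and Y-linked genes in the second. Endothelial-like cells came from a resolution of 0.2. Clusters were named from marker lists.

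UMIs were summed per library and type in Python 3.11.15 (numpy 2.4.6, scipy 1.17.1, pandas 2.3.3; plots with matplotlib 3.10.9). A gene was compared where the libraries together held 10 or more of its UMIs, and a library at 0 entered at 3 counts. The ratio calculation was run on counts drawn independently from a Poisson model, the model that its intervals assume. This checks the calculation only, and not the spread between cells, animals or libraries. With 1 library per condition no test between conditions was run. Doublets were not removed beyond the gene filter.

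The 10 genes, the pathway lists and the markers were chosen with earlier results of these data known. Besides the 10, the text names from each list the 3 genes with most UMIs in fibroblast-like cells and those past a log2 ratio of 1 with at least 100 UMIs there, and for each gene the 2 most like it; *Dusp4*, *Dusp5*, *Dusp7*, *Etv1* and *Fgf8* were added after their values were seen, and a gene that the rule names is not reported here. Alternatives covered cell filters, clustering, weighting, thinning, sex and centring.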

Additional observations from a re-analysis of the deposited data

Results flagged for a closer look

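For 3 genes the log2 ratio had opposite signs in a pair of cell types, each with an interval on its own side of 0; the differences were not tested. *Etv4* was 3.21 log2 units higher in fibroblast-like cells (2.15) than in endothelial-like cells (-1.07). *Spry2* had a log2 ratio of 2.50 in neutrophil-like cells (2 and 28 UMIs, 0.51 to 5.61) and -1.46 in erythroid-like cells (11 and 13 UMIs, -2.74 to -0.16), 3.96 apart, and *Spred2* of 1.60 (6 and 45 UMIs, 0.36 to 3.12) and -2.03 (20 and 16 UMIs), 3.62 apart. In these types the 8 fibroblast markers summed to 5594 and 5908 CPM (neutrophil-like) and to 4390 and 2022 CPM (erythroid-like), the 7 erythroid markers to 42277 and 8134 CPM in neutrophil-like cells, and median UMIs per cell were 18542 and 6996.5 in BSA and FGF8 erythroid-like cells.

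The 451 BSA and 534 FGF8 barcodes that the filters left out also held UMIs of these genes. The kept cells held 54376379 of the 67739460 BSA UMIs and 103223720 of the 124889213 FGF8 UMIs, and the barcodes left out held the rest. Their cell types were not called, and their make-up in the libraries was not compared, so they are not a separate check. The next values are those higher in the FGF8 library with an interval above 0, and the share of all genes that met this was not computed. *Etv4* stood at 8.38 and 34.7 CPM, a log2 ratio of 2.05 (1.76 to 2.35), and *Dusp6* at 24.3 and 38.3 CPM, 0.656 (0.47 to 0.85). *Spred3* stood at 4.79 and 7.94 CPM (0.729), *Spry2* at 21.2 and 29.5 CPM (0.48) and *Spred2* at 48.3 and 58.1 CPM (0.266). *Spry1* (-0.39) and *Il17rd* (-0.59) were lower there.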

How the results depend on the processing

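In fibroblast-like cells, the number of the 10 genes past a log2 ratio of 1 in either direction was 1 as reported and under 12 of 16 alternatives. It was 2 with cells thinned to 2000 UMIs, 2 in female-called cells, 2 in male-called cells and 3 at a log2 ratio of 0.5. The median log2 ratio ran from 0.15 (BSA weighting of subclusters) to 0.50 (male-called cells). *Etv4* kept its sign and lay above 1 in 15 of 15 alternatives (1.52 to 2.58), *Dusp6* ran from 0.59 to 1.21, *Spry1* from -0.48 to -0.09 and *Il17rd* from -0.68 to -0.11. *Etv4* was 1.65 without integration and 1.65 with the 10 genes and the other pathway genes kept among the features. The fibroblast-like clusters of these alternatives were larger, with 2046 BSA and 3826 FGF8 cells and with 2018 and 3812, against 1712 and 3322 as reported. Neither clustering had a cluster closest to the keratinocyte markers, as the cluster without a name was. The cells compared thus differ, and the part of this in the lower ratio was not tested. *Spry2* turned below 0 with cells thinned (-0.33 at 2000 UMIs, -0.04 at 5000), and *Spred1*, near 0, turned in 4 of 15. Each thinning was a single random draw that leaves fewer UMIs, and its ratios are given without intervals. The median of all genes, -0.07, shifts each value by less than 0.1 on centring. Elsewhere, values past 1 turned sign for *Spry1* in female-called chondrocyte-like cells (0.21), *Etv4* in male-called endothelial-like cells (0.35), *Spred2* in male-called erythroid-like cells (0.0309) and *Spry1* in erythroid-like cells without those above 40000 UMIs (0.41); the cause was not tested. Without the *Lars2* subcluster, an alternative added after seeing the data, *Etv4* was 2.14. For 9 values an alternative left a library at 0 UMIs and gave no ratio. Depth limits the values outside fibroblast-like cells, where *Etv4* rests on 1 BSA UMI in chondrocyte-like and 4 in macrophage-like cells. No paired analysis was possible because each condition is 1 library, and for the same reason no replicate could be left out.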
